A study of Homo sapiens with 12 samples.

Results

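The question was whether 10 nM estradiol changed the RNA of 231BR breast cancer cells differently when the cells shared their culture with astrocytes. 231BR cells come from MDA-MB-231, a human line, and home to the brain. They carried EGFP so that sorting could remove the mouse astrocytes once both had shared a dish for 24 h. The contrast used all 12 arrays of the series, 3 in each of 4 groups. The groups were vehicle (labelled OH) alone, estradiol alone, vehicle with mouse astrocytes and estradiol with mouse astrocytes. For each of 17958 genes on Affymetrix Human Gene ST arrays the interaction was computed as the estradiol-minus-vehicle difference with astrocytes minus the same difference without them. A positive interaction means that estradiol was followed by relatively more signal in the co-culture. All values and differences below are on the log2 scale. All 4 groups shared 1 tumour line and the labels name no second line, no source of the astrocytes and no length of treatment for the cultures without them. Nor is it stated that replicates came from separate cultures. The p-values then rest on differences between arrays that may be technical, and 3 arrays a group limit the precision.

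Estradiol acts through the nuclear receptors ERα and ERβ, which bind DNA at estrogen response elements or work through other transcription factors, and through the membrane receptor GPER. MDA-MB-231 and its derivatives are known as ERα-negative, whereas astrocytes have estrogen receptors and release growth factors, cytokines and neurotrophins. An effect of the hormone that reaches the tumour cell by way of the astrocyte would therefore show in this contrast, as a response present in the co-culture and absent from the tumour cells alone. S100A4, the EGF family and the BDNF receptor TrkB (NTRK2) are known from work on breast cancer metastasis to the brain.

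No gene passed the test of the interaction. With limma and Benjamini-Hochberg adjustment, 0 of 17958 genes (0%) had an adjusted p below 0.05, and the smallest adjusted p was 1. At an unadjusted p below 0.05 there were 31 genes (0.173%), 20 positive (0.111%) and 11 negative (0.0613%). A share of 5% would be 897 genes. The estradiol difference without astrocytes had 0 calls after adjustment (0%) and 1 gene at an unadjusted p below 0.05 (0.00557%). With astrocytes it had 0 calls (0%), 142 genes at an unadjusted p below 0.05 (0.791%) and a smallest adjusted p of 0.215, for UGT2B7. With same-numbered arrays of each culture taken as pairs, that last comparison had 0 calls and 599 genes at an unadjusted p below 0.05. The main fit gave each gene 1 error shared by all 4 groups, with a median SE of 0.30 for either difference. Replicates differed more with astrocytes, where the estradiol group held 64.0% of the residual sum of squares. The counts of the 2 cultures are therefore not comparable. Every alternative run also gave 0 calls of the interaction after adjustment except arrayWeights, which gave 648. That setting weighted single arrays between 0.0224 and 151, and its algorithm stopped before it converged. The count at an unadjusted p below 0.05 ranged from 10, without estradiol-alone replicate 3, to 465, without estradiol-with-astrocytes replicate 1, when 1 array was left out at a time. It was 159 without estradiol-with-astrocytes replicate 2 and 67 without vehicle-with-astrocytes replicate 3. Leaving out estradiol-alone replicate 1 gave 18, and leaving out estradiol-alone replicate 2 or vehicle-alone replicate 2 gave 16 each.

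The width of the intervals sets what could be seen. The interaction had a median standard error of 0.42 over genes, and 0.28 and 0.70 at the 10th and 90th percentiles. The median 95% interval reached 0.917 to either side of its estimate. The estimates themselves were spread from −1.90 to 1.40 with a median of −0.01, and the middle 95% of genes lay between −0.64 and 0.54. The interaction was above 1 for 12 genes (0.0668%), of which 5 had an unadjusted p below 0.05, and below −1 for 20 (0.111%), of which 3 did. The lowest value belonged to LRRFIP1, a gene looked at only after its value was seen. Its standard error was 1.38, and its 95% interval from −4.92 to 1.12 includes 0.

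The co-culture supplied most of the spread. Over genes, the SD of the estradiol difference was 0.11 without astrocytes and 0.27 with them. Replicates also differed more in the co-culture. Vehicle and estradiol with astrocytes held 21.1% and 64.0% of the residual sum of squares, against 10.5% and 4.41% without astrocytes. Whether the wider spread goes beyond that of replicates was not tested. Of the 31 genes at an unadjusted p below 0.05, 26 had the larger estradiol difference with astrocytes (83.9%), as did 74.6% of all genes. For 17 of the 31 the 3 estradiol and the 3 vehicle arrays with astrocytes did not overlap, as for 2.18% of all genes. The rule that picked the 31 used the same arrays, so nothing is read from these counts. Over the 17958 genes the 2 estradiol differences, which share no array, correlated at r = −0.14 and rho = −0.15. Genes are not independent replicates, and these values are a description of the arrays.

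**Figure D1:**
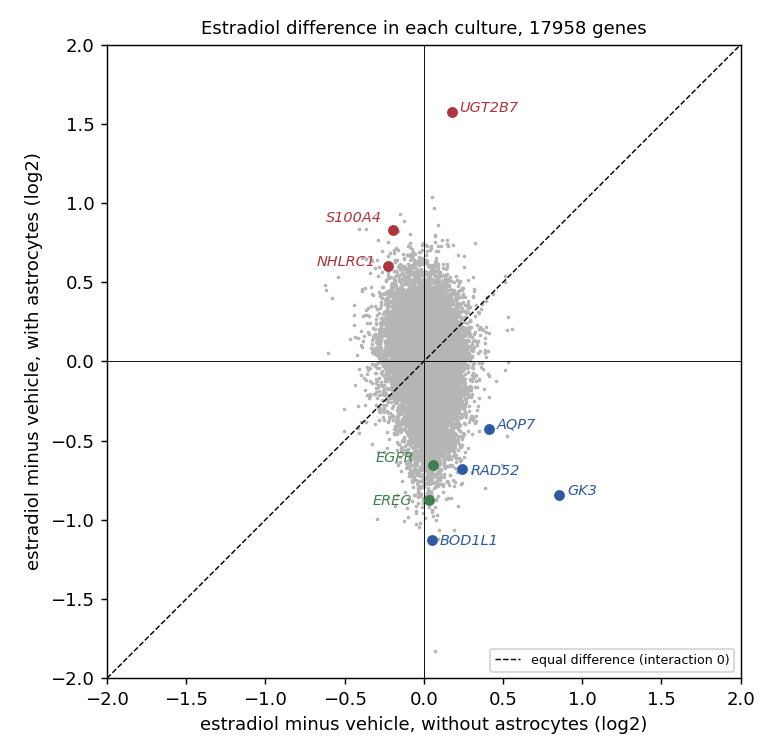
Estradiol minus vehicle without astrocytes (horizontal axis) against the same difference with astrocytes (vertical axis), both in log2 units, with 1 point per gene for 17958 genes and a dashed line where the interaction is 0. The cloud is taller than it is wide (SD over genes 0.27 against 0.11), and UGT2B7 lies at 0.18 and 1.58. Replicate arrays also differed more with astrocytes than without them.

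UGT2B7 (probe set 8100758, chromosome 4) had the smallest p of all genes. It encodes a UDP-glucuronosyltransferase that conjugates steroids, including estrogens, for excretion. Its signal was 2.56, 2.60 and 2.98 in vehicle alone, 2.64, 2.92 and 3.10 in estradiol alone, 2.35, 2.66 and 2.13 in vehicle with astrocytes, and 4.14, 3.91 and 3.81 in estradiol with astrocytes. Its mean level, 2.98, lay in the lowest quartile of genes by mean signal, which ran from 1.67 to 3.90. The median interaction of the genes in that quartile was 0.13. Whether signal this low stands above background was not tested. For UGT2B7 the 3 arrays with both estradiol and astrocytes stood above all 9 others, and the treatments overlapped without astrocytes. The estradiol difference was 0.18 (SE 0.22) alone and 1.58 (SE 0.22) with astrocytes, and the interaction was 1.40 (SE 0.31, 95% interval 0.73 to 2.07, unadjusted p = 0.00071, limma adjusted p = 1). Leaving out each array in turn gave values from 1.27 to 1.54. The gene has another probe set, 8095395, on which the interaction was 0.24 (SE 0.32), and the mean of both probe sets gave 0.82. The UGT2B genes are closely related in sequence, so signal from another member of the family cannot be told apart here.

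S100A4 (probe set 7920271, chromosome 1, its only probe set) ranked sixth by p. It encodes a calcium-binding protein that is tied to motility and metastasis. Its signal was 4.76, 4.73 and 4.84 in vehicle alone and 4.40, 4.78 and 4.56 in estradiol alone. With astrocytes it was 4.78, 4.87 and 4.995 under vehicle and 5.29, 6.29 and 5.56 under estradiol. The 3 arrays with estradiol and astrocytes were again above the other 9, with replicate 2 the highest by a wide margin, while the treatments overlapped without astrocytes. The estradiol difference was −0.19 (SE 0.24) alone and 0.83 (SE 0.24) with astrocytes. The interaction was 1.02 (SE 0.35, 95% interval 0.27 to 1.78, unadjusted p = 0.0123, limma adjusted p = 1). Without estradiol-with-astrocytes replicate 2 it was 0.74, the lowest value with 1 array left out, and without replicate 1 of that group it was 1.23, the highest. An exact permutation test of this gene alone, which reassigned treatment within each culture over 400 arrangements, gave a two-sided p of 0.015, where the smallest it can give is 0.005. The gene was picked out before from these data, so that p is not independent evidence.

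The sequences upstream of both genes are given because an estrogen receptor can bind DNA directly. Each is the 250 bases before the annotated start in RefSeq for GRCh38.p14, read 5′ to 3′ on the strand of the gene, with any match in capitals. The motifs searched on both strands were the whole estrogen response element GGTCANNNTGACC, a single arm of it, GGTCA, which the whole element contains, and the AP-1 site TGANTCA.
S100A4, chr1:153545807-153546056, minus strand: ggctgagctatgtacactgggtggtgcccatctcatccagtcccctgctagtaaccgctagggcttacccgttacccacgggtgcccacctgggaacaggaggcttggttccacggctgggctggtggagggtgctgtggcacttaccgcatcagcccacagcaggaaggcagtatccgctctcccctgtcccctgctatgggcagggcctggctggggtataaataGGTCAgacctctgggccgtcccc
UGT2B7, chr4:69096224-69096473, plus strand: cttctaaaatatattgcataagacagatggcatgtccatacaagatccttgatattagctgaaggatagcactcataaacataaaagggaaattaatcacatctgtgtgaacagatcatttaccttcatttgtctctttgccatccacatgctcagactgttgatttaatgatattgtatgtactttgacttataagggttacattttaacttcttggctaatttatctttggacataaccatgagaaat
The S100A4 window held 1 such arm, which begins 23 bases before the start, and no match to the whole element or the AP-1 site. The UGT2B7 window held none of the 3. Of 35116 windows of the same length in the table, 32.6% held the single arm, 6.57% the AP-1 site and 0.0399% the whole element. Of the 10 positive genes with the smallest p, 9 had a window and 6 of these held the single arm. Of the 10 negative ones, 8 had a window and 4 held it. A gene counted here if any of its windows held the arm, while 32.6% is a share of single windows. The genes were also picked by p from these arrays, so nothing is read from these counts. A match is a string of letters in this window and not a bound site.

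NHLRC1 and ZRSR2 followed UGT2B7 in rank and had opposite differences in the 2 cultures. NHLRC1 encodes malin, a ubiquitin ligase of glycogen metabolism. Its signal was 3.80, 3.61 and 3.71 in vehicle alone, 3.35, 3.52 and 3.56 in estradiol alone, 3.09, 3.67 and 3.38 in vehicle with astrocytes, and 3.90, 4.01 and 4.04 in estradiol with astrocytes. Estradiol arrays lay below vehicle arrays without astrocytes and above them with astrocytes, with no overlap in either culture. The interaction was 0.83 (SE 0.27, 95% interval 0.24 to 1.42, limma adjusted p = 1). ZRSR2, a splicing factor that recognises the 3′ splice site of minor introns, had 5.88, 5.99 and 5.90 in vehicle alone and 5.54, 5.67 and 5.77 in estradiol alone. With astrocytes it had 5.56, 5.81 and 5.83 under vehicle and 6.24, 6.61 and 6.05 under estradiol. The treatments were apart in both cultures and in opposite order, and the interaction was 0.83 (SE 0.27, 95% interval 0.24 to 1.43, limma adjusted p = 1).

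On the negative side AQP7 and RAD52 had the smallest p. AQP7 encodes a channel for water and glycerol. It read 4.65, 5.05 and 4.82 in vehicle alone, 5.18, 5.27 and 5.31 in estradiol alone, 5.63, 5.56 and 5.43 in vehicle with astrocytes, and 5.18, 5.35 and 4.82 in estradiol with astrocytes. Estradiol arrays were the higher ones without astrocytes and the lower ones with them, with no overlap in either culture. The interaction was −0.84 (SE 0.28, 95% interval −1.44 to −0.23, limma adjusted p = 1). RAD52, which acts in homologous recombination, read 5.30, 5.42 and 5.57 in vehicle alone and 5.54, 5.91 and 5.56 in estradiol alone. With astrocytes it read 5.45, 5.50 and 5.73 under vehicle and 4.56, 4.85 and 5.23 under estradiol, so the 3 arrays with both were the lowest of all 12. The interaction was −0.92 (SE 0.30, 95% interval −1.58 to −0.25, limma adjusted p = 1). For AQP7 and RAD52 the unadjusted p stayed below 0.05 in all 25 alternatives, including each array left out, and for ZRSR2 in 24 of 25. UGT2B7, S100A4 and NHLRC1 lie below the median level, so 1 filter removes them, and in the other 24 their p stayed below 0.05. These genes were picked by their p on the same arrays that the alternatives refit. That their p stayed low is therefore not independent evidence of an interaction.

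**Figure D2:**
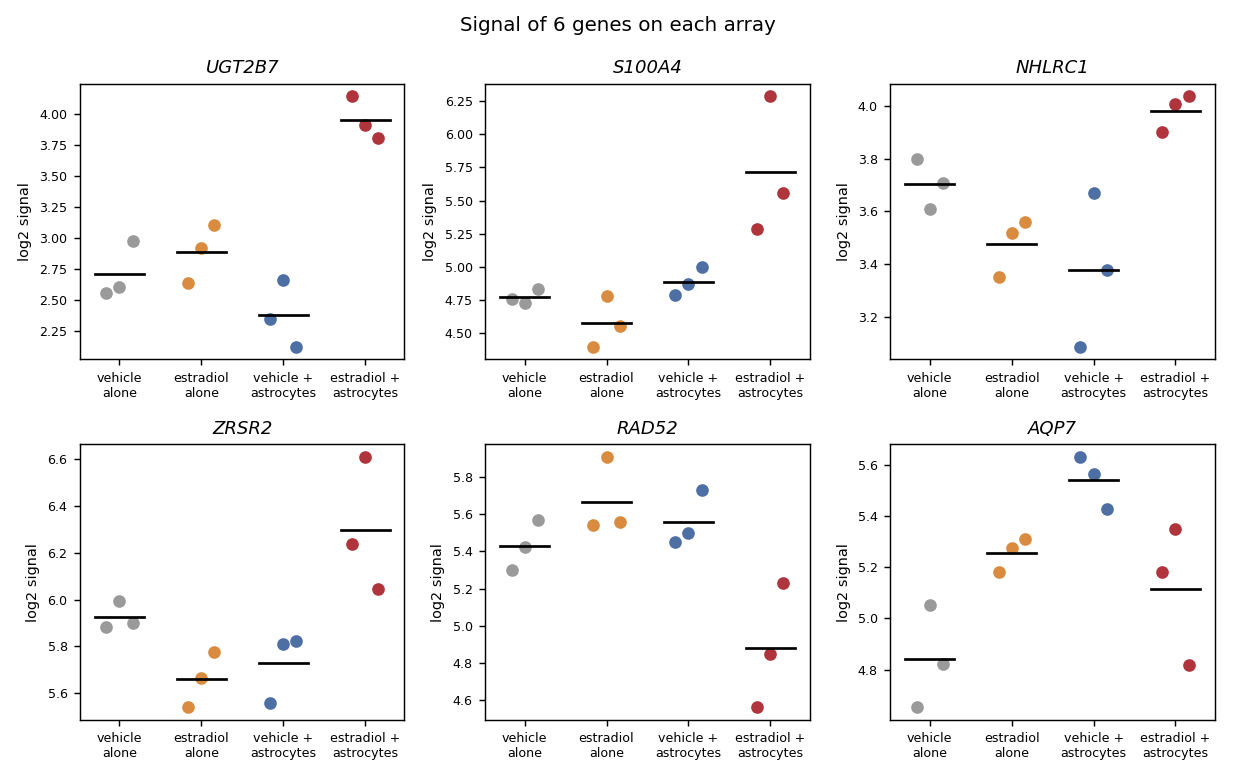
Log2 signal of UGT2B7, S100A4, NHLRC1, ZRSR2, RAD52 and AQP7 on each of the 12 arrays (points) by group, with the group mean of 3 arrays as a bar and a separate vertical scale for each gene. The 3 arrays with estradiol and astrocytes lie above the other 9 for UGT2B7 (3.81 to 4.14) and S100A4 (5.29 to 6.29) and below them for RAD52 (4.56 to 5.23).

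The next positive genes by p were LHX5 (0.78, SE 0.31), CD226 (0.70, SE 0.28), OCEL1 (0.59, SE 0.24), NYNRIN (1.24, SE 0.53) and KPTN (0.76, SE 0.33). LHX5 is a neural homeobox gene, CD226 an activating receptor of T and NK cells, and KPTN an actin-associated protein. For LHX5, CD226 and OCEL1 the estradiol and vehicle arrays did not overlap with astrocytes, and for each the difference without astrocytes was between −0.11 and −0.02. With astrocytes the NYNRIN difference rested on 2 estradiol arrays, at 7.21 and 6.46 against 5.38 on the third of the group. Without astrocytes its difference was −0.41 (SE 0.38), with the estradiol arrays below the vehicle arrays and no overlap. The NYNRIN interaction was 0.81 without estradiol-with-astrocytes replicate 2 and 0.52 on the gene's other probe set. The limma adjusted p was 1 for all 5.

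Among the remaining negative genes, GK3, a glycerol kinase, had the lowest estimate, −1.70 (SE 0.77), and the widest spread. Vehicle-alone replicate 3 read 3.49 and estradiol-with-astrocytes replicate 2 read 3.43, while the other 10 arrays read between 5.02 and 5.98. Without vehicle-alone replicate 3 the value was −1.06, and without estradiol-with-astrocytes replicate 2 it was −1.13. BOD1L1, which protects stalled replication forks, had −1.18 (SE 0.53), and MFHAS1 had −1.06 (SE 0.46), or −0.70 without estradiol-with-astrocytes replicate 2. RNPC3, a protein of the minor spliceosome like ZRSR2, had −0.998 (SE 0.43), and −0.05 (SE 0.24) on its other probe set. CCDC88C, a Wnt signalling protein, had −0.86 (SE 0.37) and −0.21 (SE 0.64) on its other probe set. SHISA9, an auxiliary protein of AMPA receptors, had −0.83 (SE 0.36), and SAP30, of the SIN3 histone deacetylase complex, had −0.67 (SE 0.30). CDK11B, a kinase of splicing and mitosis with a near-identical neighbour gene, had −0.69 (SE 0.32) and between −0.72 and −0.68 on its 4 other probe sets. Because probe sets 8180194 and 8180288 gave identical values, the probe sets of CDK11B are not read as separate measurements. Each of these genes had a limma adjusted p of 1.

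Genes whose estradiol and vehicle arrays were apart in both cultures, in opposite directions, numbered 16 (0.0891%), 11 of them higher with astrocytes (0.0613%) and 5 lower (0.0278%). Without astrocytes alone, the treatments did not overlap for 576 genes (3.21%), and with astrocytes for 392 (2.18%). In the same direction, 9 genes were apart in both cultures, 6 higher (0.0334%) and 3 lower (0.0167%). These counts were not tested against the number that arises without any effect, and nothing is read from them. Beside NHLRC1, ZRSR2 and AQP7, the crossing genes taken by size were NLRC4 (0.53, SE 0.29), CCDC24 (0.52, SE 0.27), ATAD3A (−0.54, SE 0.26), FGF13 (−0.44, SE 0.24) and SF3B4 (−0.36, SE 0.23). NLRC4 forms an inflammasome, ATAD3A is an ATPase of the inner mitochondrial membrane, FGF13 regulates sodium channels and SF3B4 is a subunit of the U2 snRNP. For NLRC4 the value was 0.30 without estradiol-with-astrocytes replicate 2. All 5 of these intervals include 0, the nearest to excluding it being that of ATAD3A, from −1.11 to 0.03.

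The receptors for estradiol had no interaction that passed the test. ESR1, which encodes ERα, read 3.32, 3.62 and 3.90 in vehicle alone and 3.31, 3.64 and 3.38 in estradiol alone. With astrocytes it read 3.63, 4.86 and 4.13 under vehicle and 3.79, 5.09 and 4.48 under estradiol. The ranges of the treatments overlapped in both cultures, and replicate 2 was the highest array of each astrocyte group. With astrocytes the estradiol array was the higher of each same-numbered pair. The interaction was 0.40 (SE 0.51, 95% interval −0.70 to 1.51) in the unpaired fit, and 0.20 (SE 0.42) on the gene's other probe set. Pairing same-numbered arrays of each culture, which the labels do not state, gave an unadjusted limma p of 0.143. Without estradiol-with-astrocytes replicate 2 the interaction was 0.086. ESR2, which encodes ERβ, had −0.02 (SE 0.35, 95% interval −0.79 to 0.75). GPER1 had −0.09 (SE 0.27, 95% interval −0.68 to 0.50). Of 10 receptors of estrogen and other steroids 5 were positive and 5 negative, against 48.7% positive and 51.3% negative over all genes. Their median was 0.08, and −0.03 without estradiol-with-astrocytes replicate 2. The receptor with the smallest p was NR3C2, the mineralocorticoid receptor (0.47, SE 0.33, and 0.28 to 0.64 with 1 array left out).

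Known target genes of ERα were split as evenly. Of 21 measured, 10 were positive and 11 negative, 0 passed (limma, 0 also at an unadjusted p below 0.05), and the median was −0.03, or 0.18 when arrays were centred and rescaled to a common SD. PGR, the progesterone receptor gene and a standard read-out of ERα, read between 2.50 and 3.00 in vehicle alone and between 2.52 and 2.91 in estradiol alone. With astrocytes it read 2.94, 3.48 and 2.92 under vehicle and 2.81, 4.01 and 3.21 under estradiol. The treatments overlapped in both cultures and the interaction was 0.25 (SE 0.42, 95% interval −0.68 to 1.17). Without estradiol-with-astrocytes replicate 2 it was −0.09.

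The EGF family was examined because its ligands are candidate paracrine signals and its receptors receive them. EGFR read 9.24, 9.15 and 8.79 in vehicle alone and 9.18, 8.97 and 9.19 in estradiol alone. With astrocytes it read 8.69, 7.78 and 7.42 under vehicle and 8.15, 6.20 and 7.57 under estradiol. Treatments overlapped in both cultures, and estradiol-with-astrocytes replicate 2 was the lowest of the 12 arrays. The interaction was −0.71 (SE 0.63, 95% interval −2.08 to 0.66), and −0.16 without that array. EREG, the ligand epiregulin, had −0.91 (SE 0.78, 95% interval −2.62 to 0.80) on values of 8.06, 5.30 and 7.15 under estradiol and 8.29, 7.80 and 7.05 under vehicle with astrocytes. Without replicate 2 of estradiol with astrocytes it was −0.14, and without replicate 1 it was −1.52. HBEGF had −0.56 (SE 0.52, 95% interval −1.71 to 0.58), which was −0.091 without replicate 2 of estradiol with astrocytes and −0.87 without replicate 3 of vehicle with astrocytes. TGFA had −0.07 (SE 0.31, 95% interval −0.75 to 0.61), the latter turning to 0.01 after quantile normalization.

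Of the 14 ligands and receptors of this family 5 were positive and 9 negative, with a median of −0.07 beside −0.01 for all genes. The median was negative under all 25 alternatives, from −0.42 to −0.02. Replicate blocks and other eBayes options leave the estimates as they are, and the other alternatives refit the same arrays. Here and below, such counts of alternatives are therefore not independent evidence. None passed (limma, 0 also at an unadjusted p below 0.05). The members with the smallest p were ERBB2 (−0.42, SE 0.30, or −0.27 without estradiol-with-astrocytes replicate 2), the receptor HER2, and EPGN (0.35, SE 0.26), a ligand. For 10 of the 14 the 95% interval stayed above −1, and for 12 it stayed below 1, so larger shifts of those genes lie outside their intervals. For EGFR, HBEGF, EREG and ERBB2 the interval reaches past −1.

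Other S100 genes were lower in rank than S100A4. The family had 13 positive and 6 negative members of 19 and a median of 0.09, and 1, S100A4, had an unadjusted p below 0.05. S100G, a calcium-binding protein of epithelia, had 0.55 (SE 0.33), and S100Z had 0.34 (SE 0.23). For both, estradiol and vehicle arrays did not overlap with astrocytes. For S100G they were 2.96, 3.47 and 2.47 under estradiol and 2.40, 2.41 and 2.28 under vehicle, and its interaction was 0.30 without the highest of these. The family's median was positive in 23 of 25 alternatives. Quantile normalization gave 0.13, rescaling 0.12 and the array SD as a covariate 0.11.

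**Figure D3:**
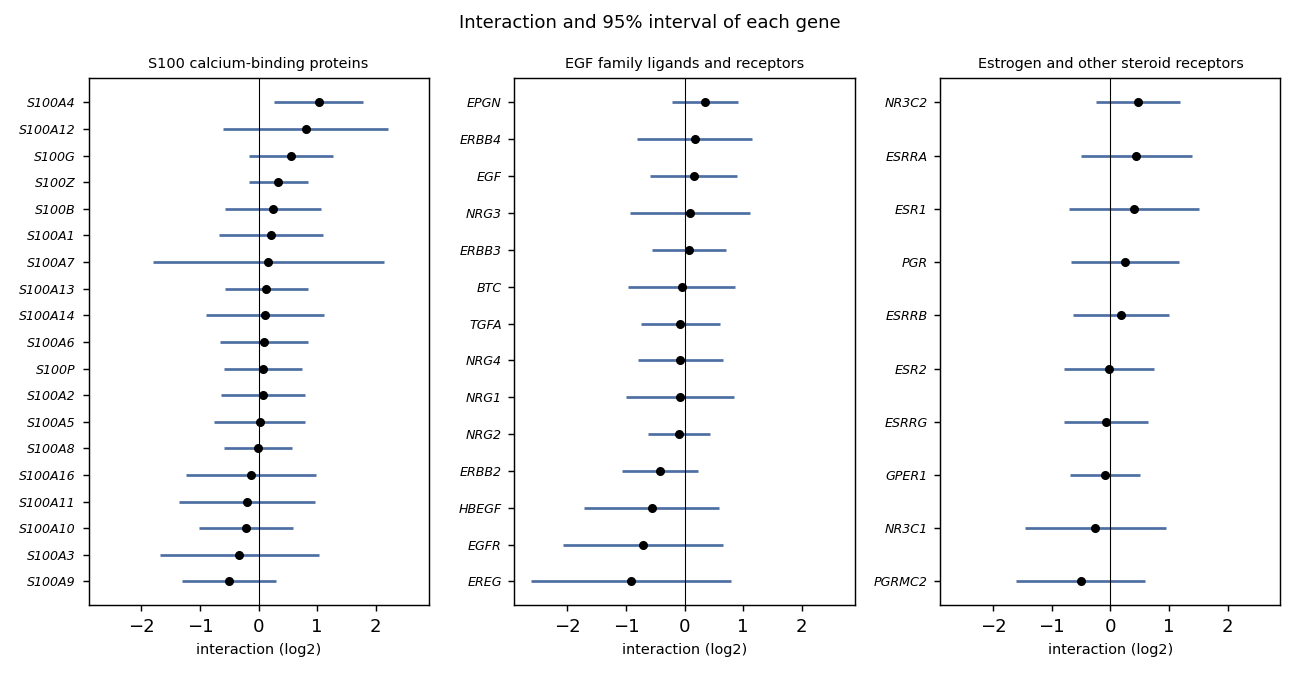
Interaction (points, log2 units) and 95% interval (lines) of each measured S100 gene, EGF family gene and steroid receptor gene, from the limma fit on 12 arrays. S100A4 (1.02, interval 0.27 to 1.78) is the only gene of the 3 panels whose interval does not include 0.

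Neurotrophin genes and inflammatory genes, which astrocytes can drive in neighbouring cells, gave no calls. BDNF had −0.47 (SE 0.51, 95% interval −1.58 to 0.64), which was −0.20 without estradiol-with-astrocytes replicate 2 and −0.92 without replicate 1 of that group. For NTRK2, the BDNF receptor TrkB, the arrays with astrocytes read 3.59, 3.74 and 3.53 under estradiol and 4.02, 4.02 and 3.76 under vehicle, which do not overlap. Without astrocytes NTRK2 read 3.89, 3.96 and 4.16 against 3.87, 4.11 and 4.16, and the interaction was −0.27 (SE 0.25, 95% interval −0.83 to 0.28). PTGS2, which encodes COX-2, had 0.07 (SE 0.33, 95% interval −0.64 to 0.79), IL6 −0.14 (SE 0.29, 95% interval −0.77 to 0.50) and IL1B −0.12 (SE 0.67, 95% interval −1.59 to 1.36). IL6 had 0.01 (SE 0.32) on its other probe set, and with 1 array left out IL1B ranged from −0.65 to 0.56 and changed sign. These 3 genes lay lower with astrocytes under either treatment, IL6 for example at no more than 4.47 on any array against at least 6.10 without them, and the interaction concerns only the estradiol step on top of that. NF-κB genes had a median of −0.07 (13 positive and 17 negative of 30), and IL6 family and STAT3 targets −0.08 (8 and 9 of 17). On the probe set used for each gene, 0 genes of either list had an unadjusted p below 0.05. Under scalings the NF-κB median was −0.02 or −0.05. The STAT3 median turned to 0.06 without estradiol-with-astrocytes replicate 2.

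On all 12 arrays the sign of the interaction followed the level of the gene. In the lowest quartile of mean signal the median interaction was 0.13, in the next 0.11, in the third −0.05 and in the highest −0.29, and across genes r was −0.54. Without estradiol-with-astrocytes replicate 2 the order turned round, with quartile medians of −0.09, −0.09, 0.06 and 0.20 and r = 0.39. With the array SD as a covariate r was −0.22, after rescaling −0.36 and after quantile normalization −0.37. That array had the narrowest range of signal, an SD over genes of 1.26, where the other 11 lay between 1.49 and 2.02. It held 38.3% of the residual sum of squares, and its group 64.0%.

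The range of signal itself had no interaction that passed its test. Over the genes of an array the SD averaged, without astrocytes, 1.92 ± 0.13 (SD, n = 3) under vehicle and 1.94 ± 0.063 (SD, n = 3) under estradiol. With astrocytes it averaged 1.65 ± 0.15 (SD, n = 3) under vehicle and 1.60 ± 0.30 (SD, n = 3) under estradiol. Their interaction was −0.076, with a two-sided p of 0.715 in an exact permutation test over 400 arrangements within culture, whose smallest possible p is 0.005. For the gene lists below, the median without the narrow array stands beside the median on all 12.

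**Figure D4:**
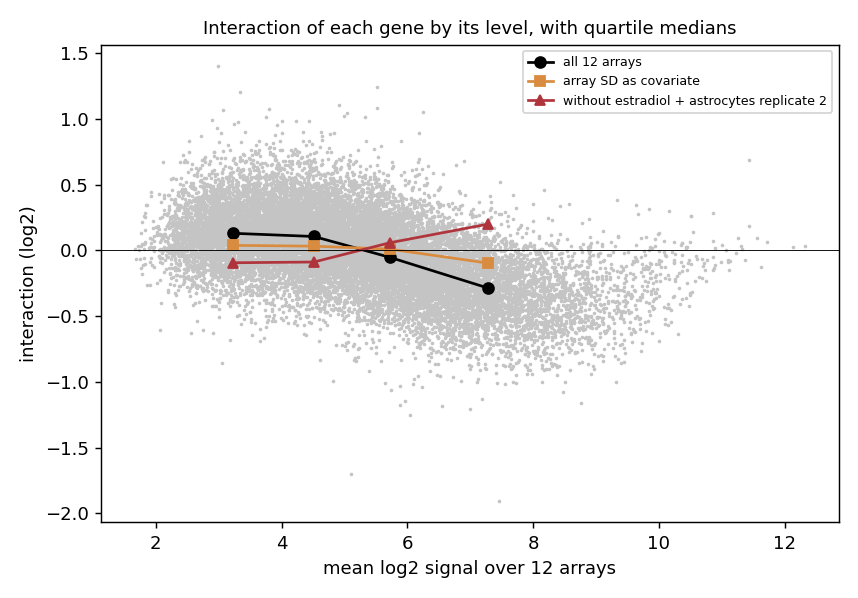
Interaction of each gene (vertical axis, log2 units) against its mean log2 signal over 12 arrays (horizontal axis), with the median of each quartile of level for all arrays (circles), with the array SD as a covariate (squares) and without replicate 2 of estradiol with astrocytes (triangles). The circles go from 0.13 to −0.29 and the triangles from −0.09 to 0.20.

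Lists of highly expressed genes were accordingly mostly negative on all 12 arrays and mostly positive without that array. G2 and mitosis genes had a median of −0.38, with 34 of 36 negative, and 0.33 without it. MKI67, the proliferation marker Ki-67, had −0.79 (SE 0.64), and FOXM1, a transcription factor of mitotic genes, −0.65 (SE 0.48). Unlike the median of their list both stayed negative without that array, at −0.50 and −0.17. MKI67 was −0.25 without vehicle-with-astrocytes replicate 1 and −1.24 without replicate 3 of that group. S phase genes had −0.30 (33 of 38 negative) and 0.25. In that list CDT1, which licenses replication origins, had 0.58 (SE 0.29), while the flap endonuclease FEN1 had −0.83 (SE 0.56) and UHRF1, which maintains DNA methylation, −0.68 (SE 0.62). Without that array these were 0.45, −0.27 and −0.085, and on its other probe set UHRF1 had −0.44 (SE 0.48) with all 12 arrays. The other lists that turned in this way were the unfolded protein response (−0.34 and 0.12), heat shock proteins (−0.32 and 0.24), hypoxia response (−0.32 and 0.14) and cholesterol synthesis (−0.30 and 0.23). So did fatty acid synthesis (−0.27 and 0.21), glycolysis (−0.23 and 0.15), ATF4 targets (−0.23 and 0.15), oxidative phosphorylation (−0.20 and 0.24) and apoptosis regulators (−0.18 and 0.10). No member of any of these lists passed the limma test, and 0 had an unadjusted p below 0.05.

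For the remaining pathway lists the sign of the median depended on the setting or on that array. Cytosolic ribosomal proteins had −0.07 (42 of 57 negative), or 0.16 without the array, 0.21 after rescaling and 0.01 after quantile normalization. TGF-β response genes had −0.10, or 0.05 without the array, and oxidative stress genes −0.02, or 0.26 without it and 0.05 after quantile normalization. Gap junction and protocadherin genes had 0.07, or −0.12 without it and −0.05 with the array SD as a covariate. Metallothioneins had 0.01, or 0.07 without it, with 20 of 25 alternatives positive. The 5 neurotrophins and receptors had 0.20, or −0.20 without it and −0.03 with the array SD as a covariate.

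Migration and invasion genes were also mostly negative, 29 of 36 with a median of −0.28, and 0.13 without estradiol-with-astrocytes replicate 2, although S100A4 is among the 7 positive ones. MMP9, a matrix-degrading protease, read 5.09, 6.27 and 4.92 in estradiol with astrocytes and 4.65, 4.75 and 4.64 in vehicle with astrocytes. These do not overlap, whereas the arrays without astrocytes read 4.20 to 4.59 and do. Its interaction was 0.75 (SE 0.43, 95% interval −0.18 to 1.69), and 0.33 without replicate 2. ITGA5, the fibronectin receptor subunit, had −0.72 (SE 0.51), and −0.24 without that array.

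For a few lists the median kept its sign when that array was left out, although it came close to 0 for most of them. Genes induced by ERK signalling had a median of −0.34, with 23 of 24 negative, and −0.02 without the array. Their median level was 7.08, in the highest quartile of mean signal. All genes of that quartile had a median interaction of −0.29, and 0.20 without the array. Over all genes 51.3% were negative, and the share among genes of like level was not counted. Their median was negative under all 25 alternatives, from −0.60 to −0.02, though several of these cannot change an estimate and all use the same arrays. LIF, a cytokine of the IL-6 family, had −0.56 (SE 0.35), and −0.58 (SE 0.26) on its other probe set. The phosphatase DUSP4 had −0.59 (SE 0.41) and the ephrin receptor EPHA4 −0.47 (SE 0.32). Without the array LIF was −0.66 on the probe set used, DUSP4 −0.26 and EPHA4 −0.48. Without estradiol-with-astrocytes replicate 3 LIF was −0.34 and EPHA4 −0.31. YAP targets, with a median level of 6.58 in the same quartile, had −0.29, or −0.02 without the array. Genes of breast cancer brain metastasis had −0.12, or −0.04. The brain metastasis median was negative under all 25 alternatives. Its members with the smallest p were EREG, COL13A1 (−0.36, SE 0.32, and −0.60 to −0.23 with 1 array left out) and HBEGF. Immediate early genes had −0.11 with and without the array, but 0.02 after quantile normalization. Of these KLF4 had −0.53 (SE 0.29), with 4.29, 4.04 and 4.01 under estradiol and 4.54, 4.77 and 4.55 under vehicle with astrocytes, which do not overlap. NR4A3 had 0.52 (SE 0.39) and JUN −0.48 (SE 0.47), which were 0.18 and −0.12 without the array.

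On the positive side stood replication-dependent histones and interferon response genes. Histones had 39 of 48 members positive and a median of 0.16, which was 0.14 without estradiol-with-astrocytes replicate 2 and positive in 24 of 25 alternatives. Histone genes of a class are close in sequence, so their probe sets may share signal. H3C11 had 0.69 (SE 0.54), H3C7 0.55 (SE 0.54) and H2BC6 0.43 (SE 0.36). Without the array H3C11 was 0.20, H3C7 0.14 and H2BC6 0.38, and without vehicle-with-astrocytes replicate 1 H2BC6 was 0.18. Interferon response genes had 18 of 26 positive and a median of 0.13, which was 0.25 without the array and positive in 23 of 25 alternatives. USP18, which removes ISG15 from proteins, had 1.05 (SE 0.59, 95% interval −0.24 to 2.34), carried by 8.01 on replicate 2 against 6.32 and 5.98 on the other arrays of its group, and 0.43 without that array. IRF7 had 0.51 (SE 0.38) and MX2 0.48 (SE 0.36), or 0.28 and 0.18 without it. No histone or interferon gene had an unadjusted p below 0.05.

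**Figure D5:**
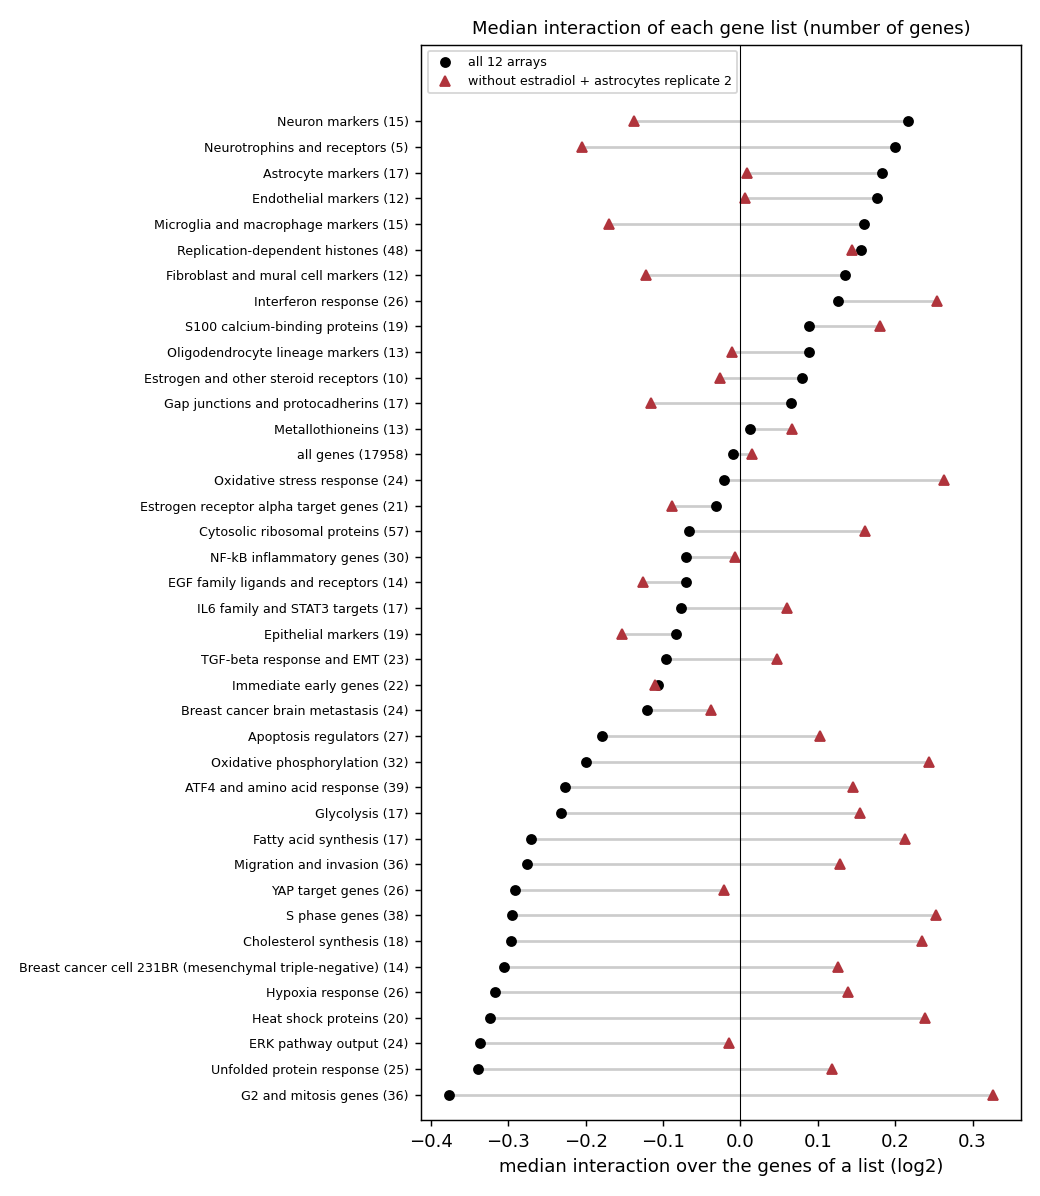
Median interaction of each gene list (horizontal axis, log2 units) on all 12 arrays (circles) and without replicate 2 of estradiol with astrocytes (triangles), with the number of genes in each list in brackets. G2 and mitosis genes go from −0.38 to 0.33, whereas histones stay at 0.16 and 0.14.

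The sorted cells had the markers of the line, and several markers of other brain cells were highest on the same array. VIM read 9.55 to 10.8 and CD44 7.68 to 9.95, the lowest of both being estradiol-with-astrocytes replicate 2. GFAP, the defining marker of astrocytes, read between 4.72 and 5.49 without astrocytes and between 5.43 and 6.70 with them. AIF1, of microglia, read between 2.28 and 2.67 without astrocytes and between 2.91 and 4.74 with them. Both were highest on that array, as were AQP4, ALDH1L1 and the neuronal RBFOX3. PTPRC was highest, at 3.04, on vehicle-with-astrocytes replicate 3, and MBP, of oligodendrocytes, was lowest on the narrow array, at 4.31 against 4.76 to 5.45 on the others. No marker can be read as 0 on this scale, and how far the human probes detect mouse RNA was not tested. Of 17 astrocyte markers 11 were positive, with a median interaction of 0.18, or 0.01 without that array. Of 15 microglia and macrophage markers 10 were positive (0.16, or −0.17), and of 15 neuron markers 11 (0.22, or −0.14). Endothelial markers had 7 of 12 (0.18, or 0.01), fibroblast and mural cell markers 8 of 12 (0.13, or −0.12) and oligodendrocyte markers 9 of 13 (0.09, or −0.01 without the array and −0.02 with the array SD as a covariate). The 14 markers of the line had 12 negative (−0.31, or 0.13), and 19 epithelial markers 11 negative (−0.08, or −0.15). The epithelial median turned to 0.03 after quantile normalization and 0.04 after rescaling. On a linear scale the summed astrocyte markers ranged from 757 to 816 in vehicle alone, 770 to 840 in estradiol alone, 775 to 945 in vehicle with astrocytes and 794 to 895 in estradiol with astrocytes, and these ranges overlap. The median log2 signal of the same markers ranged from 4.52 to 5.18, 4.43 to 4.55, 5.11 to 5.52 and 5.06 to 5.49 in these groups. The summed microglia markers ranged from 499 to 538, 511 to 547, 550.5 to 635 and 533 to 674 in the same order. Neuron markers summed to 238 to 264, 234 to 254, 288 to 338 and 275 to 476, and fibroblast and mural cell markers to 162 to 203, 159 to 197, 218 to 264 and 204 to 350. The highest microglia, neuron and fibroblast sums were all on the narrow array, and the highest astrocyte sum was on vehicle-with-astrocytes replicate 1. Oligodendrocyte sums were 488 to 494, 477 to 489, 512 to 590 and 541 to 580, and endothelial sums 462 to 529, 472 to 520, 461 to 505 and 466 to 518. Neuron, fibroblast and oligodendrocyte sums were thus higher on every array with astrocytes than on any without, while microglia and endothelial sums overlapped between the cultures. In such bulk RNA fewer cells of a type and less RNA per cell cannot be told apart, and the part of other cells in the interaction was not tested. For UGT2B7, NHLRC1, AQP7 and RAD52 the interaction without that array was 1.42, 0.82, −0.95 and −0.90, beside 1.40, 0.83, −0.84 and −0.92 with it. For S100A4 and ZRSR2 it was 0.74 and 0.68, beside 1.02 and 0.83.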

How the data were processed

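Gene expression was measured on 12 single-colour arrays. The authors deposited log2 values. Their making involved RMA and Partek, per the submitters' processing notes, which give no version or order. RMA corrects background, quantile-normalizes and summarises probes. The deposited columns still differed in spread, with an SD over the probe sets of named genes from 1.29 to 2.03 between arrays. Whether the columns were quantile-normalized together cannot be told from the notes. No further normalization or filter on low values was applied here. Of 33297 probe sets, 19181 had 1 gene symbol in the platform's probe table, 2055 had several and 12061 were not named there. Probe sets with 1 symbol were used, the one with the highest mean for each of 895 genes with several, which left 17958 genes. AREG was among the genes not analysed here.

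limma 3.58.1 in R 4.3.3 fitted 1 mean per group over all 12 arrays (eBayes without trend or robust). Tests were two-sided and adjusted over all genes by Benjamini and Hochberg, with a threshold of 0.05. Scripts were tested on simulated data. The comparison, the 30 pathway lists and 8 marker lists (950 members, 868 measured) and the genes of interest were chosen with earlier results of these data known. Genes named are the 10 with the smallest p in each direction (leaving out noncoding, pseudogene and similar names; 1 further gene is not reported here), 8 crossing genes, up to 3 per list by p, and fixed genes of interest. "Alternatives" were replicate blocks, quantile normalization, centring, rescaling, the array SD as a covariate, a filter on level, other uses of probe sets, other eBayes options, arrayWeights, other thresholds, and arrays left out. The permutation test of S100A4 was chosen after seeing the data.

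Deviations of same-numbered arrays from their group means correlated at 0.72, −0.49 and −0.04 without astrocytes and at 0.79, 0.76 and 0.21 with them, so the numbers were not taken to pair the arrays over the whole contrast. With astrocytes all 3 were above 0.1, a pairing read from the values and not stated by the labels, and the estradiol difference there is given with the pairs too.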

Additional observations from a re-analysis of the deposited data

How the results depend on the processing

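The count of 0 genes for the interaction was the same under every alternative except arrayWeights (648) and an unadjusted p below 0.05 (31), and also with each array left out. With the replicate number as a block over all groups (replicate block) it was 0, with 49 genes at an unadjusted p below 0.05, and with a block within each culture 0 and 143. With all arrays kept, the estradiol difference with astrocytes gave 1 gene with the array SD as a covariate (UGT2B7), 1197 with arrayWeights and 142 unadjusted, and that without astrocytes 0, 8 and 1. Genes with no overlap without astrocytes numbered 313 above the median level and 576 to 2753 with 1 array left out, where 2 arrays separate more easily. With astrocytes they numbered 663 after quantile normalization, 598 after rescaling, 157 above the median level, 3624 without both arrays numbered 2, and 392 to 2596 with 1 array left out. Crossing genes numbered 9 after centring, 5 above the median level, 49 without both arrays numbered 2 and 26 to 57 with 1 array left out. The interaction in the array SD ranged from −0.201 to 0.0917 with 1 array left out and was 0.0109 without both arrays numbered 2.

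Some values changed sign. With arrayWeights these were TGFA (0.040), ESR2 (0.013), IL6 (0.36), IL1B (0.39), HBEGF (0.20, from −0.56), PGRMC2 (0.088, from −0.51), NGFR (−0.32, from 0.38), JUN (0.011, from −0.48) and H3C7 (−0.055, from 0.55). TGFA was 0.014 after quantile normalization and IL1B 0.11 with the SD as a covariate. Without both arrays numbered 2, IL6 was 0.015 and IL1B 0.45. With 1 array left out, ranges that include both signs were −0.24 to 0.19 for ESR2, −0.24 to 0.028 for GPER1, −0.65 to 0.56 for IL1B, −0.23 to 0.013 for IL6, −0.057 to 0.62 for NGFR, −0.088 to 0.52 for PGR, −0.12 to 0.23 for PTGS2 and −0.21 to 0.10 for TGFA. The cause was not tested in any of these cases.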
